A study of Mus musculus with 9 samples.

Results

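Resting cardiac fibroblasts were taken here as nuclei that showed fibroblast genes and few chosen genes of activated or adventitial fibroblasts or of other cell types. A nucleus belonged to the group when at least 3 of 10 fibroblast genes had a UMI (unique molecular identifier, 1 captured transcript). The 10 genes were Abca8a, Scara5, Abca6, C1qtnf7, Abca8b, Hmcn2, Htra3, Gfra1, Pdgfra and Dcn. At most 1 of 6 activation genes (Tnc, Adam12, Ltbp2, Postn, Cxcl5, Kif26b) was allowed, at most 1 of 4 adventitial genes (Pi16, Cd248, Dpp4, Sema3c), and at most 2 of 6 genes of other lineages (Pecam1, Cdh5, Ptprb, Csf1r, Adgre1, Rbm20). The members were thus chosen on measured values, and these 26 genes were left out of every test of single genes. The shares of nuclei below were counted with them. The rule held for 11855 of 49171 nuclei (24.1%).

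The study profiled hearts of 9 C57BL/6 mice, 8 weeks old, with sNuc-seq, the sequencing of RNA from single nuclei, in which each nucleus receives a barcode in a droplet and its transcripts are counted. There were 3 groups of 3 mice each, were compared. In sham mice, 7 days of vehicle given by gavage were followed by an operation in which the coronary artery was not ligated. I/R (ischemia-reperfusion) mice received vehicle for 7 days, then ligation of the left anterior descending coronary artery for 30 min and reperfusion for 24 h. SBP mice received Shexiang Baoxin Pill, a traditional Chinese medicine that the labels call MUSKARDIA, for 7 days before the same 30 min of ischemia and 24 h of reperfusion. Tissue below the site of ligation was used.

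A library held 4576 to 6418 nuclei and 10329520 to 18205985 UMIs. Resting fibroblasts had a median of 1403 to 1994 UMIs per nucleus across the libraries, and the nuclei with fewer than 3 of the 10 fibroblast genes, used below for comparison, 1550 to 1981. Between 1855244 and 4021017 UMIs per mouse were summed over the resting fibroblasts. Libraries shared 290 barcodes, out of 48881 distinct barcodes. No doublet caller was run, and the alternative without the 5% of nuclei with most UMIs is given with the other alternatives.

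Fibroblasts of the heart make, anchor and turn over the collagen network between the muscle cells. In the uninjured heart they are quiescent and carry Pdgfra, Tcf21 and a set of secreted matrix proteins. After an infarct some of them take up contractile and matrix-building genes and become myofibroblasts, while others release cytokines and complement factors or stay close to the resting state.

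The label was checked on genes that the rule did not use. Tcf21, a transcription factor of cardiac fibroblasts, stood at 25.0, 27.3 and 29.9 CPM (the UMIs of a gene scaled to the same total in every library) in the 3 sham mice, against a mean of 1.36 CPM in the nuclei with fewer than 3 fibroblast genes. Col1a1, Col1a2 and Col3a1 (fibrillar collagens), Lum and Fbln1 (matrix proteins) and Lamc1 (a laminin chain) were likewise above those nuclei in sham. Genes outside the rule with a sham mean of at least 100 CPM were ranked by their ratio to those nuclei in sham. The largest ratios were those of Tll2, a secreted metalloprotease (157 against 3.37 CPM), and C7, a complement component (296 against 7.25 CPM). Aldh1a1, an enzyme of retinoic acid synthesis, reached 1002 against 40.1 CPM. These levels describe the nuclei chosen and carry no test, since genes of the same nuclei chose them.

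Not all resting fibroblasts carried every choosing gene. A UMI of Abca8a, a lipid transporter, was found in 90.4% to 95.9% of the resting fibroblasts of a sham library, against 14.4% to 21.9% of the nuclei with fewer than 3 fibroblast genes. Dcn, the matrix proteoglycan decorin, was found in 85.0% to 93.9% against 24.4% to 35.3%, the widest spread into other nuclei. Scara5, a ferritin receptor, was found in 24.3% to 28.0% in sham mice, 39.3% to 55.7% in I/R and 42.8% to 53.8% in SBP. Hmcn2, a matrix protein of the hemicentin family, was found in 34.6% to 40.8% in sham and 22.0% to 33.6% in I/R. Pi16, an adventitial gene of which the rule allowed the first, had a UMI in 21.1% to 21.6% of the resting fibroblasts of a sham library. Rbm20, of the other lineages, had one in 41.5% to 49.0% in sham, 21.6% to 31.8% in I/R and 17.0% to 24.4% in SBP. For the activation gene Adam12 this was 1.92% to 3.00%, 5.22% to 12.3% and 3.40% to 8.37%. Members without any gene of the limits averaged 7.39%, 7.42% and 10.1% of all nuclei in the 3 groups. All members averaged 25.9%, 20.7% and 26.6%, so most carried such a gene.

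At the edge of the rule, nuclei with 3 fibroblast genes had 42.6 CPM of Col1a1 and 16.8 CPM of Tcf21 in sham, pooled over the mice. Nuclei with 2 that met the other limits had 9.11 and 2.64 CPM. In I/R, members with 1 activation gene had 224 CPM of Col1a1 and 1125 CPM of Col3a1, and nuclei just outside, with 2, had 755 and 2994 CPM. The activation limit thus cut through a range of collagen levels.

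Resting fibroblasts made up similar shares of the nuclei of the sham mice and unequal shares after injury. Their share was 27.6%, 25.7% and 24.4% in the sham mice, 13.4%, 19.6% and 29.0% in the I/R mice and 28.3%, 20.1% and 31.6% in the SBP mice. As shares of all nuclei, the groups overlapped in each comparison. The mean was 25.9% ± 1.61 (SD, n = 3) in sham mice, 20.7% ± 7.86 in I/R and 26.6% ± 5.93 in SBP. The difference of I/R to sham was −5.26 percentage points (two-sided exact permutation test, p = 0.4), that of SBP to I/R was 5.96 points (exact p = 0.4) and that of SBP to sham 0.703 points (exact p = 0.9). With 3 mice against 3 this test cannot give a p below 0.1. The SBP difference to sham was −0.0447 points without sham replicate 3, −0.116 without SBP replicate 1 and −1.76 without SBP replicate 3, so its sign rested on single mice.

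Nuclei with at least 3 fibroblast genes numbered 14333, of which the resting fibroblasts were 82.7%. Per mouse this share was 90.5%, 86.2% and 88.1% in the sham mice, 67.2%, 76.8% and 88.03% in the I/R mice and 81.1%, 76.4% and 85.2% in the SBP mice. Every SBP mouse was below every sham mouse, with a difference of −7.33 points and the smallest p the design allows (two-sided exact permutation test, p = 0.1). The rule itself limits activation genes, so a fall of this share after injury is partly built in. The same holds for the share of all nuclei. I/R overlapped sham (−10.9 points, exact p = 0.2) and SBP (3.59 points, exact p = 0.7). Another 1052 exceeded the limit on activation genes alone, 865 that on adventitial genes and 485 that on other lineages. Of the nuclei with at least 3 fibroblast genes, those over the activation limit were 0.46% to 0.51% in sham mice, 21.6%, 14.1% and 6.04% in I/R mice and 8.15%, 13.7% and 5.48% in SBP mice. All I/R and SBP values were above all sham values, and I/R overlapped SBP. The I/R mouse with the fewest resting fibroblasts, replicate 1, had the most nuclei over the activation limit.

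**Figure D1:**
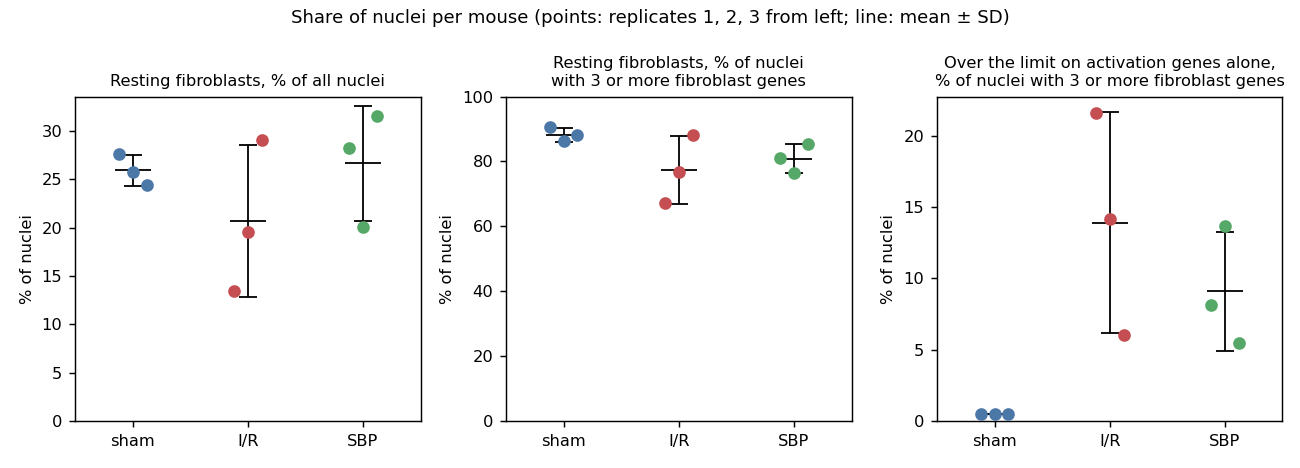
Share of resting cardiac fibroblasts per mouse. The panels give the resting fibroblasts in percent of all nuclei, in percent of nuclei with at least 3 fibroblast genes, and the nuclei over the activation limit alone in percent of nuclei with at least 3 fibroblast genes; points are mice (replicates 1 to 3 from left to right) and bars the mean with SD. The I/R mice spread from 13.4% to 29.0% of all nuclei in the left panel, and in the right panel the sham mice sit near 0.5%, below every I/R and SBP mouse.

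UMIs were summed per mouse over the resting fibroblasts, and 12649 genes were tested with limma on log2(CPM + 1). Fold changes below are on this log2 scale, with their standard error (SE), and genes past both thresholds, an absolute change over 0.25 and a limma value of 0.05 after Benjamini-Hochberg adjustment over all genes tested, were called. Values per mouse are CPM in the order of replicates 1 to 3. Between I/R and sham, 382 genes were called (3.02% of those tested), of which 219 were higher in I/R (1.73%) and 163 lower (1.29%). The number was 179 without sham replicate 1, 52 without sham replicate 3, 113 without I/R replicate 2 and 708 without I/R replicate 1. For 2490 genes (19.7%) the 3 I/R mice did not overlap the 3 sham mice. All 219 higher and all 163 lower genes called were among them, so ranges without overlap add nothing to a call. Where none of the genes of the limits was allowed in a nucleus, fewer genes could be tested (9058), and among the genes named below Kcnip1, Tll2, Bhlhe40, Bhlhe41, Hlf, Nfil3, Lox, Adamts15, Tgfbi, Smurf1, C1s1, Igfbp3 and Ccnd2 were not called (limma adjusted p from 0.0621 for Lox to 0.913 for Ccnd2, with 0.0698 for Bhlhe41). Without any limit Smurf1 (0.211), Ccnd2 (0.221), Notch3 (0.208) and Mrc1 (0.0979) were not called. After thinning to equal depth Mrc1 (0.285), Tll2 (0.0514) and Angptl2 (0.0503) were not.

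Many of the called genes were not fibroblast genes by level. Of the 219 higher genes, 109 had a lower mean in the resting fibroblasts than in the nuclei with fewer than 3 fibroblast genes in all 3 groups (49.8%, against 30.8% of all genes tested). Of the 163 lower genes, 72 did (44.2%). All 14 macrophage and neutrophil markers outside the rule were lower in the resting fibroblasts than in those nuclei. Their sum in resting fibroblasts was 292 to 422 CPM in sham mice, 848 to 1222 in I/R and 416 to 749 in SBP, and it moved in the same order in the nuclei with fewer than 3 fibroblast genes (1017 to 1239, 2732 to 3901 and 1840 to 2412 CPM). Of these 14 markers 7 were called higher in I/R and 0 lower, beside 1.73% of all genes tested called higher, among them Ctss, a lysosomal protease (9.79, 5.92 and 8.29 CPM in sham, 123, 64.1 and 40.0 in I/R, log2 change 2.97, limma adjusted p = 0.0219). The call of Ctss was lost without sham replicate 1 (0.057), sham replicate 2 (0.0587), sham replicate 3 (0.0879) and I/R replicate 2 (0.072). Mrc1, C1qb and Lyz2 were lost without the same 4 libraries (limma adjusted p from 0.0627 to 0.17) and without SBP replicate 1 (0.0556, 0.052 and 0.052), which left Gpnmb, Arg1 and Csf3r of the 7 in the former case. Mrc1 was lost as well without I/R replicate 3 (0.0879) and SBP replicate 2 (0.0641), and Lyz2 without SBP replicate 3 (0.0575).

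The sum of 10 cardiomyocyte markers moved the other way, from 8266 to 13694 CPM in sham to 4946 to 7122 in I/R and 3863 to 6520 in SBP. Pooled over all mice, all 10 were lower in resting fibroblasts than in the other nuclei. Of these, 3 (Tnni3, Mb and Ckm) were called lower in I/R and 0 higher, beside 1.29% of all genes tested called lower. All 3 lost their calls without sham replicate 3 (limma adjusted p = 0.0931, 0.0909 and 0.131) and without I/R replicate 2 (0.0996, 0.0793 and 0.076), and without sham replicate 2 Tnni3 (0.0595) and Ckm (0.0874) did. Ckm was also lost without I/R replicate 3 (0.0754) and each SBP replicate (0.0511, 0.0555 and 0.0558). Of 8 mural cell markers, Notch3 was called lower, beside the same 1.29%. In contrast to the myeloid and cardiomyocyte lists, 1 of the 8 mural markers, pooled in the same way, was lower in resting fibroblasts than in the other nuclei. The summed mural level was 439 to 620 against 359 to 398 CPM in sham. The Schwann cell markers summed to 817 to 978 against 57.2 to 74.7 CPM in sham, with Cdh19 and Scn7a higher in resting fibroblasts. None of 8 endothelial, 3 Schwann cell, 2 lymphoid and 1 adipocyte markers tested was called, beside 3.02% of all genes tested. No mesothelial marker had enough UMIs to be tested. What part transcripts from other cells had in the calls below was not tested.

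**Figure D2:**
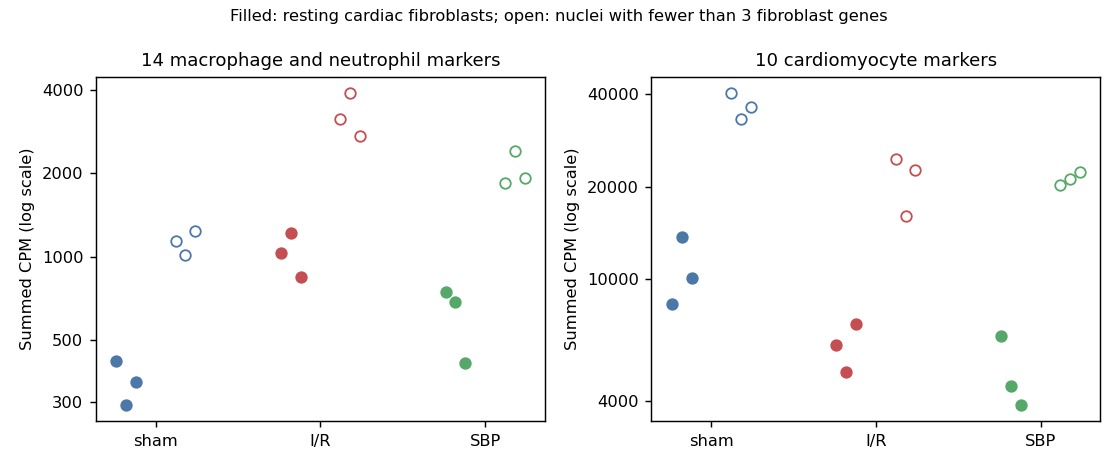
Markers of other cell types in resting fibroblasts. The y axes (log scale) give the summed CPM of 14 macrophage and neutrophil markers and of 10 cardiomyocyte markers per mouse; filled points are the resting fibroblasts and open points the nuclei with fewer than 3 fibroblast genes. The myeloid sum is higher in all I/R mice than in all sham mice in both kinds of nuclei, the cardiomyocyte sum is lower, and the resting fibroblasts lie below the other nuclei throughout.

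The largest increases in I/R included genes known from macrophages. Spp1 (osteopontin, a secreted glycoprotein, chromosome 5, 104435118 to 104441050 on GRCm38) stood at 0, 0.329 and 0 CPM in sham mice, 436, 31.2 and 75.2 in I/R and 30.3, 146 and 55.1 in SBP. Over the 3 mice, 1185 UMIs in I/R stood against 1 in sham. The depth-scaled ratio was 1185, and counting error alone gave it a 95% interval of 212 to 46858. Every I/R mouse was above every sham mouse, and I/R replicate 1 was far above the others, without which the ratio was 481. Limma called it (log2 change 6.54, SE 0.88, adjusted p = 0.0107).

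Arg1 (arginase 1, an enzyme of arginine breakdown) stood at 0.489, 0 and 0 CPM in sham and 24.1, 63.7 and 14.8 in I/R (log2 change 4.69, SE 0.47, limma adjusted p = 0.00104), 1 UMI against 251 (251 times at equal depth, with 44.7 to 9956 for counting error, 144 without I/R replicate 2 and 380 without I/R replicate 3). Gpnmb, a membrane glycoprotein of phagocytes, stood at 2.94, 1.64 and 3.65 CPM in sham and 69.1, 35.1 and 51.8 in I/R (3.81, SE 0.33, adjusted p = 0.000378). Neither overlapped between the groups. In I/R both were more abundant in the nuclei with fewer than 3 fibroblast genes, with 31.8 Arg1 and 47.1 Gpnmb UMIs per 100 nuclei, against 7.12 and 11.8 in resting fibroblasts. In sham Gpnmb went the other way, with 0.0353 UMIs per 100 of those nuclei against 0.531 in resting fibroblasts. The I/R values of Spp1 were 72.6 in those nuclei and 33.6 in resting fibroblasts. Lgals3 (galectin-3), Hmox1 (heme oxygenase, which breaks down heme), Cd300lf (a receptor of myeloid cells) and Slfn4 rose too, with log2 changes of 3.74, 3.71, 4.28 and 4.56, and were also lower in resting fibroblasts than in those nuclei. Slfn4 lost its call without sham replicate 3 (adjusted p = 0.0512). Hp (haptoglobin, which binds free hemoglobin) stood at 1.96, 0 and 0 CPM in sham and 10.7, 65.9 and 16.1 in I/R (4.05, adjusted p = 0.0121), a call that was lost without sham replicate 3 (0.0735).

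Other large increases were of genes at least as abundant in resting fibroblasts. The long noncoding RNA 2600014E21Rik (chromosome 2, 75138843 to 75317820, plus strand) stood at 8.81, 8.22 and 10.6 CPM in sham mice, 135, 209 and 227 in I/R and 136, 152 and 132 in SBP. The lowest I/R mouse was thus more than 10 times the highest sham mouse, and the SBP mice lay near the lowest I/R mouse, replicate 3 just below it. Its log2 change was 4.20 (SE 0.20, limma adjusted p = 1.33e-06). In I/R it had 46.4 UMIs per 100 resting fibroblasts against 3.02 in the nuclei with fewer than 3 fibroblast genes. It rose in those nuclei too, from a mean of 1.43 CPM in sham to 9.95 in I/R. The 2 changes were not called different (log2 difference 1.95, limma adjusted p = 0.0874). Its gene overlaps Gm13653 on the same strand, so that reads may not be told apart, and A330043C09Rik and Rps6-ps4 on the other strand.

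Further genes with a higher mean in resting fibroblasts than in the other nuclei in all 3 groups were picked for that level after their values were seen. Adamts15, a protease of the versican-cleaving family, stood at 18.6, 17.8 and 11.3 CPM in sham and 42.3, 112 and 178 in I/R (log2 change 2.54, SE 0.43, limma adjusted p = 0.0175). Leaving out mice ended the call for sham replicate 3 (0.0878) and I/R replicate 2 (0.0696). Sntg1, a syntrophin, stood at 76.8, 65.7 and 61.7 CPM in sham and 150, 409 and 353 in I/R (2.02, adjusted p = 0.015, and 0.0814 without sham replicate 3). Enpp3, an ectonucleotidase, stood at 11.7, 20.4 and 15.3 CPM in sham and 35.9, 48.5 and 83.0 in I/R (1.70, adjusted p = 0.0184, and 0.0611 without sham replicate 1, 0.0896 without sham replicate 3 and 0.06 without I/R replicate 2). In all of them every I/R mouse was above every sham mouse, which was a condition of the choice.

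The largest decreases included genes that marked resting fibroblasts in sham. Tll2 stood at 79.8, 224 and 167 CPM in sham and 19.8, 60.2 and 14.3 in I/R (log2 change −2.43, limma adjusted p = 0.0388). Tll2 was no longer called without sham replicate 2 (0.0866), sham replicate 3 (0.129), I/R replicates 1 (0.0723) and 3 (0.0857) and each SBP replicate (0.059, 0.0567 and 0.0616). D630003M21Rik stood at 263, 228 and 263 CPM in sham and 119, 62.4 and 43.0 in I/R (−1.86, SE 0.33, adjusted p = 0.0184, and 0.057 without sham replicate 1, 0.0879 without sham replicate 3 and 0.0724 without I/R replicate 2). The long noncoding RNA Gm39090 fell from 45.5, 58.8 and 53.7 CPM to 15.5, 5.63 and 8.05 (−2.42, SE 0.33, adjusted p = 0.00522), a call kept in each of the 21 alternatives. Its gene overlaps Bcl7c on the other strand.

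Hunk, a serine/threonine kinase, stood at 82.7, 91.4 and 99.2 CPM in sham mice, 38.6, 12.998 and 14.1 in I/R and 18.2, 19.0 and 25.4 in SBP (I/R against sham −2.18, limma adjusted p = 0.012, and 0.0716 without sham replicate 3). Angptl2, a secreted angiopoietin-like protein, stood at 84.2, 199 and 155 CPM in sham and 55.2, 17.8 and 18.6 in I/R (−2.33, adjusted p = 0.0404). The call of Angptl2 was lost without sham replicates 2 (0.091) and 3 (0.131), I/R replicates 2 (0.132) and 3 (0.104) and SBP replicates 2 (0.0588) and 3 (0.0533). Kcnip1, a potassium channel subunit, stood at 131, 201 and 188 CPM in sham and 50.9, 32.5 and 7.04 in I/R (−2.83, adjusted p = 0.048). Kcnip1 was no longer called without each sham replicate (0.102, 0.11 and 0.135), I/R replicate 2 (0.0988) and each SBP replicate (0.0592, 0.0574 and 0.0767). The groups did not overlap for these genes.

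The circadian clock had the most calls of the gene lists examined in the resting fibroblasts. In the clock, Arntl (BMAL1) and Clock bind the E-box CACGTG and drive their own repressors, the Per, Cry, Nr1d and Bhlhe genes, and the output factors Dbp, Tef and Hlf. Of 19 clock genes, all tested, 4 were called higher and 7 lower in I/R, beside 1.73% and 1.29% of all genes tested, and for 16 the I/R mice did not overlap the sham mice, beside 19.7% of all genes tested. All 11 called genes are named here, chosen after their values were seen where the naming rule did not reach them.

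Arntl, Clock, Npas2 and Nfil3 rose. Arntl (chromosome 7, 113207465 to 113314126) stood at 12.2, 7.56 and 8.63 CPM in sham mice, 245, 148 and 74.2 in I/R and 58.3, 29.3 and 35.2 in SBP (log2 change 3.77, SE 0.40, limma adjusted p = 0.00234). Clock stood at 105, 90.4 and 104 CPM in sham and 250, 212 and 193 in I/R (1.12, adjusted p = 0.00427). Both calls were kept in each of the 21 alternatives, and no I/R mouse overlapped a sham mouse. Npas2, which can replace Clock as the partner of BMAL1, stood at 29.4, 28.9 and 21.2 CPM in sham and 602, 221 and 141 in I/R (3.29, adjusted p = 0.015, and 0.0763 without sham replicate 3). Nfil3, a repressor that binds the sites of Dbp, stood at 7.34, 3.62 and 2.99 CPM in sham and 22.5, 28.2 and 20.4 in I/R (2.19, adjusted p = 0.021, and 0.0567 without sham replicate 2, 0.108 without sham replicate 3 and 0.0845 without I/R replicate 2).

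The output factors Dbp, Tef and Hlf fell. Dbp stood at 77.8, 166 and 104 CPM in sham mice, 2.68, 9.97 and 16.6 in I/R and 35.1, 69.2 and 71.1 in SBP (log2 change −3.64, SE 0.54, limma adjusted p = 0.0126, and 0.0526 without sham replicate 3). Tef stood at 232, 348 and 313 CPM in sham and 87.4, 94.9 and 146 in I/R (−1.45, adjusted p = 0.0185, and 0.0539 without sham replicate 2, 0.0925 without sham replicate 3 and 0.0759 without I/R replicate 2). Hlf stood at 138, 216 and 235 CPM in sham and 74.0, 52.4 and 92.8 in I/R (−1.41, adjusted p = 0.032, and 0.0807, 0.134 and 0.11 without the same replicates in that order). In each the highest I/R mouse was below the lowest sham mouse.

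Per3 stood at 165, 246 and 179 CPM in sham and 46.6, 51.6 and 77.7 in I/R (log2 change −1.74, limma adjusted p = 0.0138, and 0.0735 without sham replicate 3 and 0.0598 without I/R replicate 2). Bhlhe41 stood at 48.5, 38.8 and 31.8 CPM in sham and 12.9, 5.63 and 7.54 in I/R (−2.12, SE 0.34, adjusted p = 0.0122), and Bhlhe40 at 74.9, 55.6 and 109 CPM and 23.0, 36.8 and 19.4 (−1.56, adjusted p = 0.0185, and 0.0527 without sham replicate 1 and 0.0909 without sham replicate 3). Ciart, a repressor of BMAL1 and Clock, stood at 11.3, 14.1 and 14.3 CPM in sham and 0.536, 0.433 and 5.28 in I/R (−2.56, adjusted p = 0.0205, and 0.0527, 0.0552 and 0.103 without sham replicates 1, 2 and 3 and 0.0758 without I/R replicate 2). Nr1d1, a nuclear receptor that represses Arntl, stood at 102, 151 and 139 CPM in sham and 2.14, 19.1 and 55.8 in I/R. Its groups did not overlap, but it was not called (−3.09, adjusted p = 0.103). Per2 was not called either (−0.74, adjusted p = 0.154).

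The same direction was seen outside the resting fibroblasts. In the nuclei with fewer than 3 fibroblast genes the mean of Dbp was 82.2 CPM in sham and 5.96 CPM in I/R, and that of Arntl 13.5 and 86.4 CPM. For none of the 19 clock genes did the change in resting fibroblasts differ from the change in those nuclei at an adjusted p of 0.05. The nearest was Npas2, whose log2 change was larger in resting fibroblasts by 2.83 (limma adjusted p = 0.0641). With 3 mice per group, a difference that was not called does not show that the changes were alike. Per3 overlaps Camta1, Clock overlaps Ube2n-ps1 and Gm43658, and Npas2 overlaps Gm3617 on the same strand, so that reads may not be told apart. On the other strand Dbp overlaps Sphk2 and Nr1d1 overlaps Thra. The labels gave no time of day at which the hearts were collected.

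**Figure D3:**
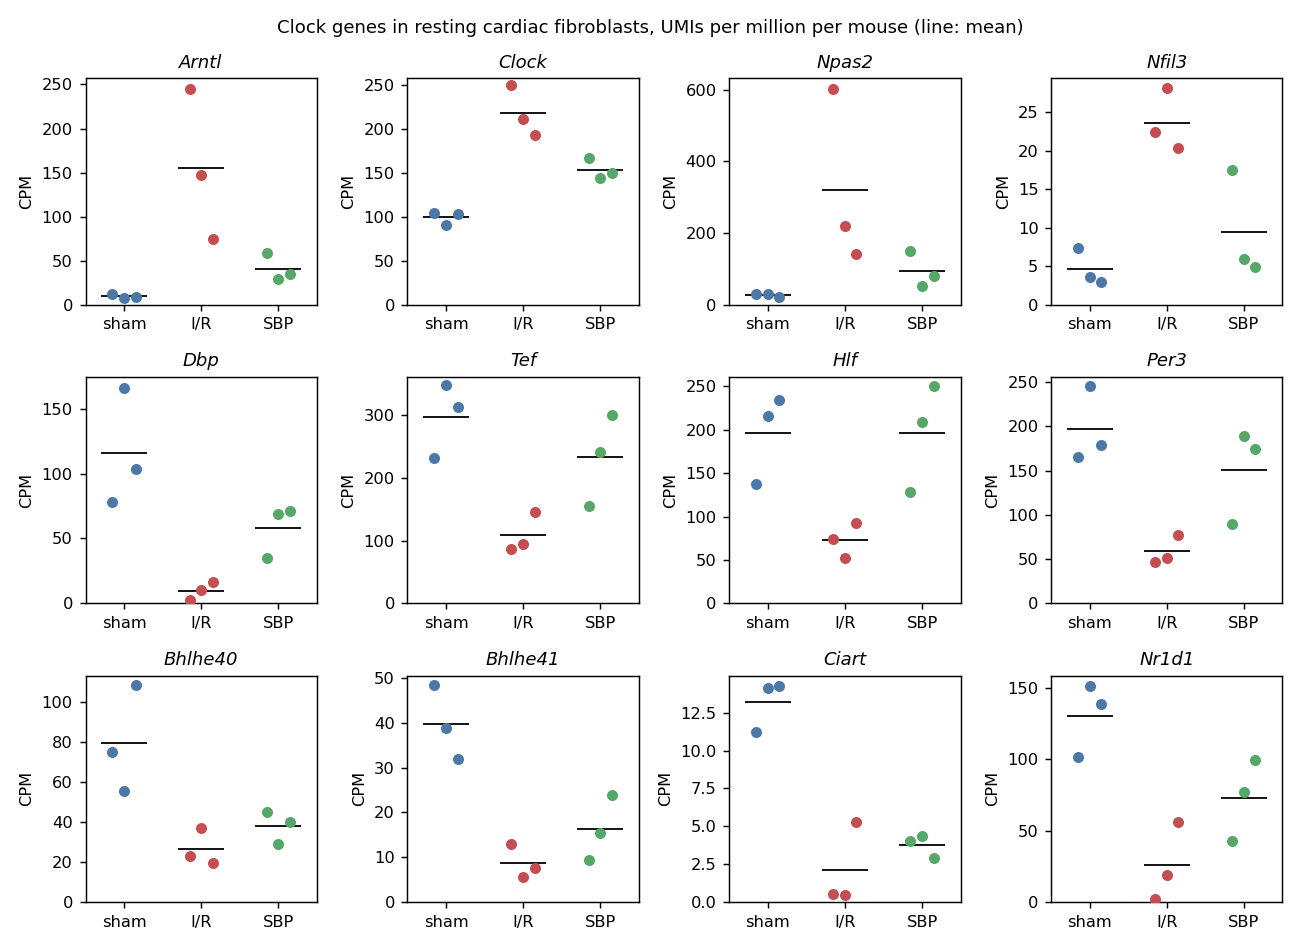
Clock genes in resting fibroblasts. Each panel gives the CPM of a gene in each mouse (points, replicates 1 to 3 from left to right) with the group mean (line). Arntl, Clock, Npas2 and Nfil3 are above sham in every I/R mouse, and Dbp, Tef, Hlf, Per3, Bhlhe40, Bhlhe41, Ciart and Nr1d1 are below it; of these, Nr1d1 was not called.

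The promoters of the called clock genes were searched for the E-box CACGTG, which is its own reverse complement, in the 250 bases before each annotated start. They are shown because the E-box is the site through which BMAL1 and Clock act. Of the 11 called clock genes 10 had a promoter entry, and 3 of these held an E-box, Ciart, Bhlhe41 and Tef. The share among tested genes with an entry was 9.82% (968 of 9855), among the genes called higher 9.94% (17 of 171) and among those called lower 9.92% (12 of 121). The AP-1 motif TGACTCA, searched on both strands, was in none of the 10 and in 3.91% of the tested genes. The sequences, from RefSeq on GRCm38.p6, run 5′ to 3′ on the strand of the gene and end at the base before the start, with the E-box in capitals.
Ciart (chr3:95882229-95882478, minus strand): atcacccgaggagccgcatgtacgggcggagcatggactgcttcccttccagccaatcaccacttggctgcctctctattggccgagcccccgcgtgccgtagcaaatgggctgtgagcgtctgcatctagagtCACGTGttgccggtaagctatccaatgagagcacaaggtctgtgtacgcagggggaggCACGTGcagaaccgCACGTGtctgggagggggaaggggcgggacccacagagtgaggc
Bhlhe41 (chr6:145865421-145865670, minus strand): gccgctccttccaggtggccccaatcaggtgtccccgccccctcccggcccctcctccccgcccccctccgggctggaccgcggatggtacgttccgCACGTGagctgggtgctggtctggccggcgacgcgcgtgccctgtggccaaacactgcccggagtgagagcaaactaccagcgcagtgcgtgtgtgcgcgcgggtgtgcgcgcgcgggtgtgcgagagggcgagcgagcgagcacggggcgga
Tef, first start (chr15:81802423-81802672, plus strand): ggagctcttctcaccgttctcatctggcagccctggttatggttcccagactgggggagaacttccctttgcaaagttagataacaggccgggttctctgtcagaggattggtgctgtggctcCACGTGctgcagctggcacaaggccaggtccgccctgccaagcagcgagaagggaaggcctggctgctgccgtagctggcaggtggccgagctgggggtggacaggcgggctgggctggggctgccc
Tef, other start (chr15:81811164-81811413, plus strand): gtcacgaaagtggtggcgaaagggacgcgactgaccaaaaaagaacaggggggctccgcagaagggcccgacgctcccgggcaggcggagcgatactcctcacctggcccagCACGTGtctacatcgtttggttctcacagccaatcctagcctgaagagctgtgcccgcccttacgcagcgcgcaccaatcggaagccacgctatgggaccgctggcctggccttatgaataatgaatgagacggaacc
The Ciart promoter held 3 E-boxes, 116, 58 and 44 bases before the start. That of Bhlhe41 held 1 at 153 bases, and the starts of Tef 1 each at 127 and 138 bases. A match describes the letters only and does not show binding.

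Of 24 enzymes and inhibitors of matrix cross-linking and turnover 22 were tested, and 4 were called higher (Timp1, Adamts4, Lox, Mmp14) and 1 lower (Timp3) in I/R, beside 1.73% and 1.29% of all genes tested, with a median log2 change of 0.35. Over all genes tested the median was −0.02. Timp1, an inhibitor of matrix metalloproteinases (chromosome X, 20870166 to 20874735), stood at 2.45, 1.31 and 2.32 CPM in sham mice, 39.1, 60.2 and 23.9 in I/R and 33.7, 26.1 and 31.9 in SBP (3.72, SE 0.31, limma adjusted p = 0.00036). All treated and untreated injured mice were above all sham mice, and the call was kept in each of the 21 alternatives. Timp3, an inhibitor bound to the matrix, stood at 574, 261 and 621 CPM in sham mice, 76.6, 180 and 173 in I/R and 221, 212 and 319 in SBP (−1.75, SE 0.39, adjusted p = 0.0477). The call of Timp3 was lost without sham replicates 1 (0.147) and 3 (0.164), I/R replicates 2 (0.0844) and 3 (0.0666) and each SBP replicate (0.0639, 0.0688 and 0.0619). Timp1 overlaps Syn1 and Timp3 overlaps Syn3 on the other strand.

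Mmp14, a collagenase of the cell membrane, stood at 34.8, 22.7 and 21.9 CPM in sham and 70.2, 123 and 95.1 in I/R (log2 change 1.82, SE 0.28, limma adjusted p = 0.00987, and 0.066 without sham replicate 3). Lox, which cross-links collagen, stood at 6.36, 2.96 and 7.30 CPM in sham and 16.1, 40.7 and 88.0 in I/R (2.68, adjusted p = 0.0293). Its call was lost without each sham replicate (0.0728, 0.0743 and 0.0879) and without I/R replicate 2 (0.101). Adamts4, an aggrecanase, rose to 212 UMIs in I/R from 3 in sham, 70.7 times at equal depth, and counting error spans 23.9 to 345 times (29.1 without I/R replicate 2 and 109 without I/R replicate 3). The limma adjusted p came to 0.0185, or 0.0682 without sham replicate 1 and 0.0882 without sham replicate 3. On log2(CPM + 5) it was 0.0651, so the call of Adamts4 was lost there too. These 3 genes did not overlap between I/R and sham.

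Among 14 fibrillar and associated collagens tested, Col1a1 was called higher and none lower, beside 1.73% and 1.29% of all genes tested. It stood at 42.1, 52.6 and 60.7 CPM in sham mice, 290, 188 and 94.3 in I/R and 153, 138 and 102 in SBP (log2 change 1.73, SE 0.35, limma adjusted p = 0.0293). The call was lost without sham replicates 1 (0.0928), 2 (0.0676) and 3 (0.0896) and without I/R replicate 2 (0.11). Col3a1 stood at 211, 289 and 233 CPM in sham and 1455, 518 and 296 in I/R (adjusted p = 0.201), and I/R replicate 1 was far above the other mice. Col8a1, a network-forming collagen, stood at 1446, 1106 and 2535 CPM in sham and 922, 385 and 369 in I/R and missed the threshold (−1.65, adjusted p = 0.0583). None of 16 basement membrane genes was called, beside 3.02% of all genes tested. Col15a1 of that list stood at 582, 71.1 and 27.2 CPM in I/R, and the first of these, the mouse with most nuclei over the activation limit, was above the sham range of 359 to 573 CPM while the others were below it.

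Of 24 myofibroblast genes outside the rule 22 were tested, and 5 were called higher and 0 lower, beside 1.73% and 1.29% of all genes tested, namely Spp1, Timp1, Lox, Cthrc1 and Tgfbi. Timp1 and Lox were also counted in the matrix turnover list. Spp1 was more abundant in the nuclei with fewer than 3 fibroblast genes (72.6 against 33.6 UMIs per 100 nuclei in I/R). Cthrc1, a secreted protein of injured fibroblasts, rose to 58 UMIs in I/R from 1 in sham (58.0 times at equal depth, with 10.0 to 2331 for counting error, 38.9 without I/R replicate 1 and 87.1 without I/R replicate 3). Its limma adjusted p was 0.0138, or 0.0778 with sham replicate 3 left out. Tgfbi, a matrix protein induced by TGF-beta, stood at 14.7, 35.2 and 21.9 CPM in sham and 73.4, 101 and 45.0 in I/R (1.58, limma adjusted p = 0.04). The call of Tgfbi was lost without sham replicates 1 (0.107) and 3 (0.138), I/R replicates 1 (0.0558) and 2 (0.131) and SBP replicates 1 (0.0579) and 3 (0.0594). Acta2, the smooth muscle actin of contractile myofibroblasts, stood at 6.85, 10.8 and 10.6 CPM in sham and 12.3, 28.6 and 4.27 in I/R, and was not called (adjusted p = 0.847). Fn1 (fibronectin) stood at 21.0, 29.9 and 17.9 CPM in sham and 148, 83.2 and 35.0 in I/R without overlap, but was not called (adjusted p = 0.0804). Nuclei with 2 or more of the 6 activation genes were outside the rule, so these values describe fibroblasts below that limit.

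**Figure D4:**
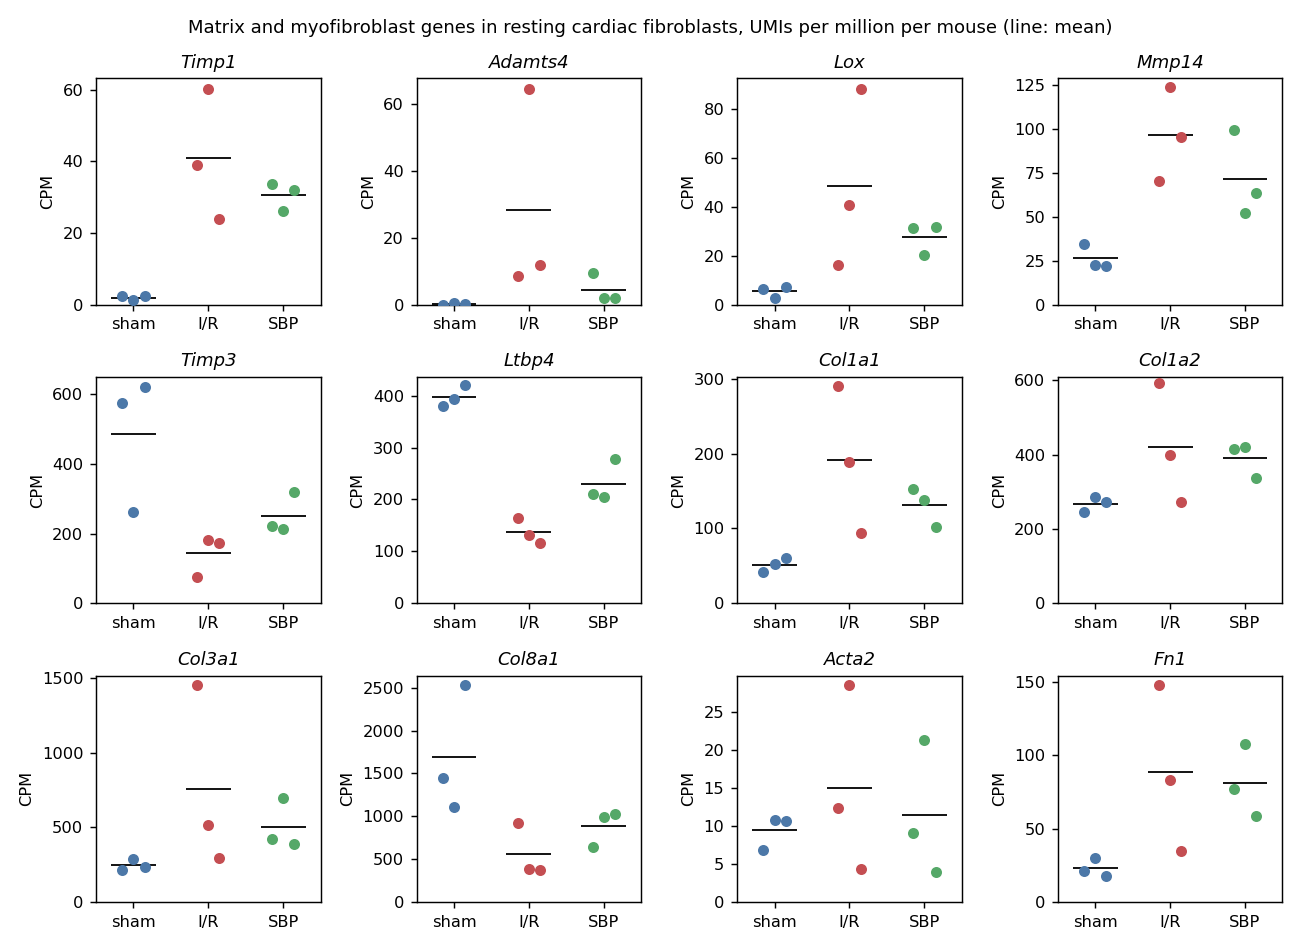
Matrix genes in resting fibroblasts. Each panel gives the CPM of a gene in each mouse (points) with the group mean (line). Timp1, Adamts4, Lox, Mmp14 and Col1a1 are above sham in every I/R mouse, Timp3 and Ltbp4 are below it, and Acta2 overlaps between the groups (4.27 to 28.6 CPM in I/R).

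Of 25 TGF-beta pathway genes 24 were tested, and 2 were called lower and 0 higher, beside 1.29% and 1.73% of all genes tested. The shares of all genes called apply to the lists that follow as well. Ltbp4, which binds latent TGF-beta and elastic fibers, stood at 381, 393 and 421 CPM in sham mice, 165, 131 and 115 in I/R and 210, 205 and 277 in SBP (log2 change −1.55, SE 0.17, limma adjusted p = 0.00142). The I/R, SBP and sham mice formed 3 ranges that did not overlap, and the call was kept in each of the 21 alternatives. Smurf1, a ubiquitin ligase that degrades receptors and Smads, stood at 165, 160 and 170 CPM in sham and 113, 114 and 104 in I/R (−0.58, adjusted p = 0.0368). Its call was lost without each sham replicate (0.0938, 0.0547 and 0.134), I/R replicates 2 (0.0996) and 3 (0.0666) and each SBP replicate (0.0576, 0.0647 and 0.0591). The ligand Tgfb1 stood at 66.6, 31.9 and 53.7 CPM in sham and 31.1, 41.2 and 29.7 in I/R and was not called (adjusted p = 0.327).

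Of 29 chemokines, cytokines and receptors 25 were tested, and 2 were called higher and 0 lower. Il1r1, the receptor of interleukin 1, stood at 293, 233 and 257 CPM in sham mice, 530, 538 and 531 in I/R and 468, 479 and 322 in SBP (log2 change 1.03, SE 0.17, limma adjusted p = 0.0126, and 0.0753 without sham replicate 3). All injured mice were above all sham mice. The cytokine Il6 was not found in sham and gave 58 UMIs in I/R (2.68, 16.03 and 4.02 CPM). With 3 UMIs set as the floor for the sham group it was at least 19.3-fold higher, or 9.69-fold without I/R replicate 2. Limma gave an adjusted p of 0.0344, and 0.0844, 0.0688 and 0.125 without sham replicates 1, 2 and 3, 0.131 without I/R replicate 2 and 0.0542 without SBP replicate 3. The call of Il6 was also lost on log2(CPM + 5) (0.0927), with the replicate number as a block (0.0753) and with the 6 mice of the comparison alone (0.0537). Ccl2, a chemokine for monocytes, stood at 95.9, 19.4 and 81.6 CPM in sham and 22.0, 64.1 and 28.7 in I/R and was not called.

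Of 19 acute phase and complement genes 14 were tested, and 3 were called higher and 0 lower. Besides Hp these were Ptx3 (pentraxin 3, which marks damaged cells and microbes) and C1s1, a protease of the first complement component. Ptx3 stood at 0, 0.657 and 0.995 CPM in sham and 13.4, 26.9 and 8.80 in I/R (log2 change 3.41, limma adjusted p = 0.00427). Its call was kept in each of the 20 alternatives in which it was tested. C1s1 stood at 59.2, 56.9 and 52.7 CPM in sham mice, 78.8, 92.3 and 137 in I/R and 117, 105 and 94.2 in SBP (0.82, adjusted p = 0.048). C1s1 was no longer called without each sham replicate (0.0987, 0.0866 and 0.175), I/R replicates 2 (0.108) and 3 (0.0815) and each SBP replicate (0.0639, 0.0757 and 0.0721). Serpina3n, a serine protease inhibitor, stood at 19.1, 3.62 and 8.63 CPM in sham and 27.9, 165 and 198 in I/R without overlap and missed the threshold (adjusted p = 0.0565). C7 stood at 469, 221 and 199 CPM in sham and 180, 1211 and 894 in I/R, and Saa3 at 0 in every sham mouse and 1.07, 410 and 15.6 CPM in I/R. The I/R mice spread widely for both, and neither was called.

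Of 23 growth factors and receptors tested Egfr, a receptor of the epidermal growth factor family, was called higher and none lower. It stood at 708, 361 and 489 CPM in sham mice, 1264, 850 and 890 in I/R and 647, 682 and 682 in SBP (log2 change 0.98, limma adjusted p = 0.0466). Egfr was no longer called without sham replicates 2 (0.0949) and 3 (0.163), each I/R replicate (0.0708, 0.0898 and 0.0557) and each SBP replicate (0.0677, 0.0715 and 0.0748). Pdgfrb, a receptor of platelet-derived growth factor, stood at 125, 99.3 and 176 CPM in sham and 76.6, 75.0 and 92.8 in I/R and was not called.

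Of 10 genes of the insulin-like growth factor axis tested, Igfbp3, a binding protein, was called higher, from 12.7, 7.89 and 7.63 CPM in sham to 26.8, 21.7 and 25.1 in I/R (log2 change 1.32, limma adjusted p = 0.0254). Without sham replicates 2 and 3 and I/R replicate 2 the adjusted p was 0.0616, 0.12 and 0.0633. The ligand Igf1 stood at 154, 101 and 117 CPM in sham and 166, 55.02 and 126 in I/R and overlapped. Of 19 Wnt pathway genes tested, Lef1, a transcription factor of that pathway, was called lower, from 8.81, 5.92 and 7.30 CPM to 1.61, 1.73 and 0.503 (−1.91, adjusted p = 0.0466). The call of Lef1 was lost without sham replicates 1 (0.148), 2 (0.0799) and 3 (0.161), I/R replicates 2 (0.099) and 3 (0.0964) and SBP replicate 2 (0.0649).

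Of 10 cell cycle genes tested, Ccnd1 and Ccnd2 (D-type cyclins, which drive entry into the cycle) were called lower and none higher. Ccnd1 stood at 42.6, 31.6 and 32.5 CPM in sham mice, 12.9, 8.23 and 10.8 in I/R and 6.07, 6.33 and 10.8 in SBP (log2 change −1.66, SE 0.26, limma adjusted p = 0.0107, and 0.0577 without sham replicate 3). Ccnd2 stood at 40.6, 45.7 and 33.5 CPM in sham and 22.5, 23.8 and 22.9 in I/R (−0.76, adjusted p = 0.0466), a call that was lost without each of the 9 libraries (0.0588 to 0.124). Its log2 change was −0.10 (0.913) where no gene of the limits was allowed and −0.46 (0.221) without the limits. Mki67, a marker of dividing cells, stood at 1.96, 2.63 and 0.995 CPM in sham and 10.2, 11.7 and 3.02 in I/R and was not called (adjusted p = 0.0926). The cyclins and Mki67 thus had opposite directions of difference.

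No member was called among 17 glucocorticoid-responsive genes, 15 immediate early genes, 11 p53 targets, 7 genes of retinoid metabolism and 3 ABC transporter genes tested. In the glucocorticoid list sham replicate 2 stood apart. Fkbp5, a chaperone induced by glucocorticoids, stood at 1695, 295 and 1098 CPM in sham and 659, 1155 and 1143 in I/R. Zbtb16, a transcription factor, stood at 3847, 492 and 2211 CPM in sham. Fos, an immediate early factor, ranged from 0.489 to 14.9 CPM in sham and from 9.11 to 45.9 in I/R. Cdkn1a, the cell cycle inhibitor p21, stood at 12.7, 2.63 and 6.30 CPM in sham and 16.1, 55.9 and 36.7 in I/R without overlap and missed the threshold (limma adjusted p = 0.0594). Of the 16 fibroblast identity genes 1, Col1a1, was called.

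**Figure D5:**
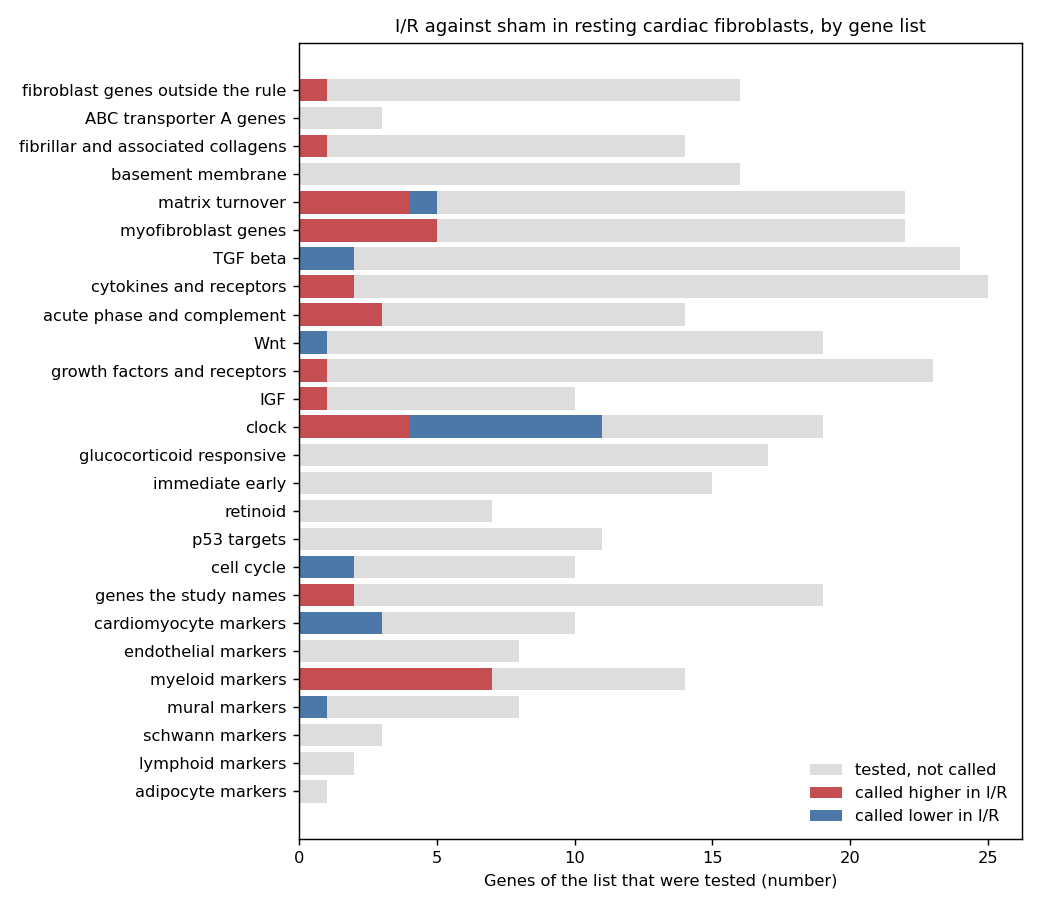
Gene lists in resting fibroblasts, I/R against sham. Bars give for each list the number of genes tested and the numbers called higher and lower. The circadian clock has 11 calls among 19 genes, the macrophage and neutrophil markers 7 among 14, and several lists none.

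The change from sham to I/R in resting fibroblasts was set against the change in nuclei with fewer than 3 fibroblast genes. The latter were not limited in activation genes, as the resting fibroblasts were, and 0.15% to 0.506% of them per sham library and 3.68% to 11.02% per I/R library held a Tnc UMI. Whether the latter include activated fibroblasts was not tested. The change differed for 78 genes (0.617% of those tested), with a higher signed log2 change in resting fibroblasts for 17 and a lower one for 61. Without the limits on activation, adventitial and other-lineage genes the balance turned, with 126 higher and 73 lower. The number was 17 without sham replicate 1, 280 without sham replicate 2, 18 without sham replicate 3, 4 without I/R replicate 2, 18 without I/R replicate 3, 42 without SBP replicate 1 and 29 without SBP replicate 3. Col1a1 rose by 1.73 in resting fibroblasts and by 3.79 in the other nuclei, where it started from 7.60 CPM (difference −2.06, limma adjusted p = 0.00955, and 0.051 without I/R replicate 2 and 0.304 without the limits). Of the 78 genes 10 were among the 382 called in resting fibroblasts.

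Between SBP and I/R, which differ by the drug, limma called 0 of 12649 genes. There were 468 genes with an unadjusted p under 0.05 (3.70%), the smallest adjusted p was 0.9998, and for 998 genes (7.89%) the SBP mice did not overlap the I/R mice. The median absolute log2 difference was 0.16 and the median SE 0.25. The 5 genes with the smallest p in each direction are given as values. All had an adjusted p of 0.9998.

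Ephx1 (epoxide hydrolase, which detoxifies epoxides) stood at 72.4, 113 and 88.6 CPM in sham mice, 34.3, 25.6 and 30.2 in I/R and 53.9, 65.3 and 72.7 in SBP (log2 difference of SBP to I/R 1.07, unadjusted p = 0.00018). Podn, a small proteoglycan, stood at 91.5, 161 and 125 CPM, 52.0, 32.9 and 27.9 and 65.4, 128 and 119 (1.43). Every SBP mouse was above every I/R mouse for both. The clock genes Hlf (1.40), Dbp (2.67) and Per3 (1.31) completed the genes higher in SBP. Dbp, at 35.1 to 71.1 CPM in SBP, was above the I/R mice and below all sham mice.

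Among the genes lower in SBP, Dnm3os, a noncoding RNA that hosts microRNAs, stood at 115, 95.7 and 93.9 CPM in sham mice, 288, 190 and 206 in I/R and 109, 141 and 132 in SBP (log2 difference −0.82). Tiparp, a poly-ADP-ribose polymerase, stood at 63.1, 40.4 and 50.1 CPM, 55.2, 68.5 and 70.7 and 37.1, 35.6 and 35.9 (−0.81). Arntl (−1.80), Syk, a kinase of immune receptors (−1.08), and Tmed7, a protein of vesicle transport (−0.77), followed. The SBP mice were below the I/R mice for all 5. No gene list had a call, and of 19 genes that the study named for the drug in fibroblasts none was called. Kif26b, also named there, belongs to the choosing rule and was not tested. That list was chosen by the study on these samples. The study drew it from all fibroblasts and from subgroups, among them Postn-positive and cycling ones, so the sets of nuclei differ. Its methods name DESeq2, while limma on sums per mouse was used here, so the tests differ as well.

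Between SBP and sham, 79 genes were called (0.625% of those tested), 40 higher (0.316%) and 39 lower (0.308%), and for 2787 genes (22.0%) the mice did not overlap. The number was 24, 70 and 8 without sham replicates 1, 2 and 3, 211, 100 and 152 without I/R replicates 1, 2 and 3, and 19, 8 and 17 without SBP replicates 1, 2 and 3. This comparison shares the sham mice with that of I/R, and 65 of the 79 genes were also called there.

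Among the genes higher in SBP, Spp1 had the largest log2 change (5.86, limma adjusted p = 0.0355), a call lost without each sham replicate (0.0905, 0.063 and 0.0988), I/R replicate 3 (0.0525) and each SBP replicate (0.0535, 0.12 and 0.102). Slfn4 (3.48, adjusted p = 0.048) and Lgals3 (3.46, adjusted p = 0.0308) were called too. Slfn4 was lost without each sham replicate (0.0505, 0.0918 and 0.198) and each SBP replicate (0.114, 0.15 and 0.0991), and Lgals3 without sham replicates 1 (0.0668) and 3 (0.0958) and each SBP replicate (0.0593, 0.0929 and 0.0811). On log2(CPM + 5) the calls of Spp1 (limma adjusted p = 0.0926) and Slfn4 (0.113) were lost as well. Timp1 had a log2 change of 3.40 (limma adjusted p = 0.000985), 2600014E21Rik 3.79 (4.28e-06), Gpnmb 3.16 (0.00282) and Cd300lf 3.68 (0.00515), calls kept in each of the 21 alternatives. Rad51b, a gene of DNA repair by recombination, stood at 31.8, 32.5 and 25.9 CPM in sham mice, 112, 88.0 and 79.0 in I/R and 92.7, 89.4 and 81.2 in SBP (1.52, adjusted p = 0.00492), likewise kept. Ggt5, an enzyme of glutathione and leukotriene metabolism, stood at 59.7, 92.0 and 70.3 CPM in sham mice, 158, 171 and 297 in I/R and 238, 208 and 195 in SBP (1.53, adjusted p = 0.0202). Its call was lost without sham replicates 1 (0.0657) and 3 (0.113) and each SBP replicate (0.0725, 0.0992 and 0.0811). In resting fibroblasts of I/R mice Ggt5 had 53.1 UMIs per 100 nuclei, against 4.49 in the nuclei with fewer than 3 fibroblast genes.

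Among the genes lower in SBP, Ccnd1 had a log2 change of −2.10 (limma adjusted p = 0.00689, and 0.0519 without sham replicate 3 and 0.0532 without SBP replicate 2). Myl2, a myosin light chain of the ventricle, stood at 950, 1479 and 1055 CPM in sham mice, 445, 232 and 433 in I/R and 430, 463 and 355 in SBP (−1.46, adjusted p = 0.0378), and in the nuclei with fewer than 3 fibroblast genes its mean was 1773 CPM in sham. Without sham replicates 1, 2 and 3 and SBP replicates 1, 2 and 3 its adjusted p was 0.0588, 0.063, 0.148, 0.0944, 0.12 and 0.123. Of the 39 lower genes 33 (84.6%) had a lower mean in resting fibroblasts than in those nuclei in all 3 groups, against 30.8% of all genes tested, and of the 40 higher genes 18 did (45.0%). Of the 14 myeloid markers 3 were called higher and of the 10 cardiomyocyte markers 3 lower, beside 0.316% and 0.308% of all genes tested. What part transcripts from myeloid cells and cardiomyocytes had in these calls was not tested.

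The mice of a group were not equally alike. Of the genes with at least 100 CPM, the highest mouse was over 2 times the lowest in 151 genes in sham mice (6.90%), 302 in I/R (13.9%) and 70 in SBP (3.25%). Among the I/R mice, replicate 1 had the most Col3a1 and the least C7, and replicate 3 the least Col1a1.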

How the data were processed

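Nuclei were profiled with 10x Genomics 3′ chemistry. Per the labels and the study's methods, reads were aligned to GRCm38 with Cell Ranger (4.0 in the submitters' processing notes), down-sampled between libraries, and filtered on genes per nucleus and mitochondrial share, with mitochondrial genes removed. No doublet step and no counting by strand were stated. The files held fewer nuclei than the study states. The authors deposited natural log values of UMIs scaled to 10000 per nucleus. UMIs were recovered from the steps of each nucleus, with 99.99936% to 99.99994% of values per library within 0.1 of a whole UMI.

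Members were chosen by the rule given in the report. The members and the gene lists were chosen with earlier results of these data known. UMIs were summed per mouse over members (and, separately, over nuclei with fewer than 3 fibroblast genes), scaled by TMM factors computed in numpy, and tested as log2(CPM + 1) with limma 3.58.1 (trend and robust options, R 4.3.3), without a replicate block. All 9 mice shared 1 estimate of spread. Genes needed 3.36 CPM in at least 3 samples and at least 15 UMIs in total. Shares were compared with two-sided exact permutation tests. The script was tested on simulated data. Python 3.11.15, numpy 2.4.6, scipy 1.17.1, pandas 2.3.3 and matplotlib 3.10.9 were used. Gene coordinates are from GENCODE M21 on GRCm38. Genes were named by a fixed rule, per comparison the 12 largest called increases and the 12 largest decreases with groups that did not overlap and at least 20 CPM in the higher group, or the 5 smallest p per direction where none was called, and up to 4 genes per list with the best-known gene of the list. Exceptions are stated in the text, and some genes are not reported here. Intervals cover counting error only. Alternatives changed the scaling, the pseudocount, the filter, the rule, the libraries used and the block.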

Additional observations from a re-analysis of the deposited data

Results flagged for a closer look

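The change from sham to I/R differed between resting fibroblasts and nuclei with fewer than 3 of the 10 fibroblast genes for 78 genes by the limma test of the difference itself. The genes of the lists that were of this kind and are given here had a lower value of the change in resting fibroblasts than in the other nuclei. Without the limits on activation, adventitial and other-lineage genes 199 genes differed, 126 with a higher and 73 with a lower change in the fibroblast nuclei, so the balance of directions turned. The differences (log2, change in resting fibroblasts minus change in the other nuclei) were −2.06 for Col1a1, −2.37 for Col1a2, −1.92 for Col3a1 and −1.97 for Col5a1 (collagens), −1.64 for Fn1, −3.41 for Thbs1 (thrombospondin 1), −1.61 for Loxl2 and −1.96 for Loxl3 (collagen cross-linking), −1.51 for Timp3, −1.36 for Serpinf1 (a member of the serpin family), −3.07 for Ccl2 and −3.12 for Ccl7 (monocyte chemokines), and −1.53 for Tnfrsf1b (a receptor of tumor necrosis factor). The limma adjusted p ranged from 0.00955 to 0.046. Of these 13 genes 3 were still called without I/R replicate 2 (Ccl2, Ccl7 and Thbs1), 5 without sham replicate 3, 6 without sham replicate 1, I/R replicate 3 or SBP replicate 3, 9 without I/R replicate 1 and 11 to 13 without each of the other mice. Without the limits Ccl2, Ccl7, Thbs1, Timp3 and Tnfrsf1b were still called, and the collagens, Fn1, Loxl2, Loxl3 and Serpinf1 were not. In the other nuclei Col1a1 changed by 3.79, Fn1 by 3.35, Thbs1 by 4.05 and Ccl2 by 2.44. A Tnc UMI was found in 3.68% to 11.02% of those nuclei per I/R library, which the rule did not limit in activation genes, and the part of activated fibroblasts among those nuclei in the differences was not tested. Groups of 3 mice were too small for the search for single mice far from the others.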

How the results depend on the processing

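The 382 genes called between I/R and sham became 52 to 708 when single mice were left out, 195 with the 6 mice of the comparison alone and 798 (541 higher, 67.8%, against 57.3%) without the limits on activation, adventitial and other-lineage genes. With the replicate block they were 257. The replicate numbers did not pair the mice (correlations of same-numbered mice −0.289 to 0.141). The 79 genes between SBP and sham became 18 with the replicate block, 345 with 6 mice, 164 with at least 4 fibroblast genes, 284 without the limits and 8 to 211 without single mice. The 78 genes whose change differed became 133 with library size alone (15 higher and 118 lower), 363 with a pseudocount of 5, 199 without the limits (126 higher and 73 lower, the opposite balance) and 4 to 280 without single mice, and 66 with the replicate block. Between SBP and I/R 0 genes were called under all 21 alternatives (smallest adjusted p 0.0771, without I/R replicate 1). The share of resting fibroblasts differed between I/R and sham by 0.0309 points where no capped gene was allowed, and between SBP and sham by −7.33 points of nuclei with at least 3 fibroblast genes. Without single mice the differences were −9.43 to −1.63, 2.33 to 10.1 (SBP and I/R) and −1.76 to 3.99 points (SBP and sham). Of the named genes 14 of 64 (I/R and sham) and 5 of 24 (SBP and sham) were called under all alternatives, and none changed direction. The causes were not tested.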

Other observations

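Among genes not described above, Csf3r, the receptor of granulocyte colony-stimulating factor and a neutrophil marker, stood at 10.3, 4.60 and 6.97 CPM in the resting fibroblasts of sham mice, 41.3, 40.3 and 34.2 in I/R and 66.8, 31.2 and 27.1 in SBP (I/R against sham, log2 change 2.31, limma adjusted p = 0.0073), a call kept in each of the 21 alternatives. Notch3, a receptor of mural cells, stood at 100.3, 96.6 and 129.7 CPM in sham, 50.4, 37.7 and 30.4 in I/R and 47.9, 50.6 and 42.1 in SBP (−1.46, adjusted p = 0.00522), a call that was lost without the limits of the rule (−0.85, adjusted p = 0.208). Enpp2 (autotaxin, which makes lysophosphatidic acid) stood at 57.8, 153 and 74.6 CPM in sham, 266, 107 and 133 in I/R and 184, 299 and 330 in SBP and was not called in any comparison. Myh7, a myosin heavy chain of muscle, stood at 99.8, 24.7 and 42.1 CPM in sham, 5.36, 159 and 33.7 in I/R and 361, 337 and 153 in SBP, and was not called between SBP and I/R (log2 difference 3.02). Enpp2 and Myh7 are among the genes that the study named for the drug on these samples, and were singled out here after their values were seen.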
